A study of Mus musculus with 27 samples.

Results

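The liver releases proteins that act on other tissues, the hepatokines, and proteins that carry insulin-like growth factors (IGFs) in the blood. The genes followed here were 9 of these, chosen by symbol among the 23191 gene symbols of the count table: the IGF binding proteins *Igfbp1*, *Igfbp2* and *Igfbp4*, the activin antagonist follistatin (*Fst*), the activin E subunit *Inhbe*, the stress cytokine *Gdf15*, leukocyte cell-derived chemotaxin 2 (*Lect2*), adropin (*Enho*) and fetuin-B (*Fetub*). All 9 were in the table and all passed the filter on low counts in each comparison. Liver RNA had been sequenced from 27 male C57BL/6J mice, either HGFAC-KO or littermate controls, put at 8 weeks of age on chow or on a diet rich in fat and sucrose (HF/HS) and sampled after 4 weeks. There were 7 controls on chow (Control chow), 6 HGFAC-KO mice on chow (KO chow), 7 controls on HF/HS (Control HF/HS) and 7 HGFAC-KO mice on HF/HS (KO HF/HS). The KO was whole-body and made with CRISPR/Cas9, and it removed part of exon 1 and exon 2 of *Hgfac*, so its absence was neither restricted to hepatocytes nor timed. *Hgfac* encodes a liver protease precursor that, once active, cleaves hepatocyte growth factor (HGF) to the form that activates the receptor MET. Each mouse gave 1 library, and the comparisons addressed how the diet and the loss of HGFAC related to liver mRNA.

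IGF binding proteins hold IGF1 and IGF2 in the circulation and set how much of either reaches its receptor. Insulin lowers *Igfbp1* transcription in the liver by keeping FOXO1 out of the nucleus, which is why *Igfbp1* is known to rise with fasting. Activins signal through SMAD proteins, follistatin binds and neutralizes them, and activin E is made almost entirely by hepatocytes. GDF15 is induced by cell stress and acts on the hindbrain receptor GFRAL, LECT2 binds MET and TIE1, adropin is a small secreted peptide tied to energy balance, and fetuin-B is a protease inhibitor of the cystatin superfamily.

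The total counts per mouse ranged from 36056177 to 57298657, and 4.13% to 12.1% of them fell on rows that name no gene. *Hgfac* ran from 183 to 219 CPM (library-scaled counts, as a share of a fixed total) in Control chow, from 65.4 to 84.5 in KO chow, from 247 to 296 in Control HF/HS and from 81.8 to 101 in KO HF/HS. Each HGFAC-KO mouse was therefore below each control on the same diet. The counts are per gene, so they do not show where on *Hgfac* the remaining reads lay. All 8 hepatocyte markers were measured, with summed levels between 80180 and 118400 CPM, while the 5 adipocyte markers together stayed at or below 2.35 CPM. The library KO chow 1 stood apart in its group, with a chi-square per gene of 85.3 to 110.7 against each of the other KO chow mice. Those 5 gave 24.6 to 65.5 among themselves. Some values that rest on KO chow 1 are given with and without it, and others with their range when single mice were left out. Pairs of Control HF/HS mice reached 182.6 on the same measure, between Control HF/HS 5 and Control HF/HS 7. In bulk liver, fewer cells of a type and less RNA per cell cannot be told apart. The labels number the libraries within a group without naming litters or cages, so the p-values measure the spread between these libraries.

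Promoter sequences were taken from RefSeq (GRCm38.p6) for the 7 members it lists here, and 6 of the 10 windows are shown: those of *Gdf15* and *Fetub*, which passed for the diet, of *Igfbp1*, which insulin controls through its promoter, and of *Inhbe*, a stress response gene. Each is the 250 bases before an annotated start, 5′ to 3′ on the gene's strand. Capitals mark a match, on either strand, to CAAAACA (the core of the insulin response sequence, which FOXO1 binds), GTAAACA (a FOXO core), CACGTG (an E-box), TGATGNAA (an element of ATF4 with CEBP) or AGGTCA (a core that nuclear receptors recognize). No window shown held more than 1 of these matches, so none overlapped.
Igfbp1 (chr11:7197537-7197786, plus strand): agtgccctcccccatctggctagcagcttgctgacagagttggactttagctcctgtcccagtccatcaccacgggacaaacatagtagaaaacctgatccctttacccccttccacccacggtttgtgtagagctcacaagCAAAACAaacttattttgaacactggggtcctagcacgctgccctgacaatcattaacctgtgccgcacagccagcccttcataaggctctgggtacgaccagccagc
Gdf15, first start (chr8:70632457-70632706, minus strand): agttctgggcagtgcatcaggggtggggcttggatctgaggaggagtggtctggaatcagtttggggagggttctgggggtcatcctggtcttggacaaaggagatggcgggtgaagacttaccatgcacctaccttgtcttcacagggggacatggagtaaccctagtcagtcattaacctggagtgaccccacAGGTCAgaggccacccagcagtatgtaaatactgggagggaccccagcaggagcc
Gdf15, second start (chr8:70632096-70632345, minus strand): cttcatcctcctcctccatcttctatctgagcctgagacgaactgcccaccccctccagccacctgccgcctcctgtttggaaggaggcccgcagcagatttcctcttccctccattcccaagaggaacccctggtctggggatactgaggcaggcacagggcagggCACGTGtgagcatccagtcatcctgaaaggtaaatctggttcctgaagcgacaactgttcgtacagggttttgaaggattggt
Inhbe (chr10:127351849-127352098, minus strand): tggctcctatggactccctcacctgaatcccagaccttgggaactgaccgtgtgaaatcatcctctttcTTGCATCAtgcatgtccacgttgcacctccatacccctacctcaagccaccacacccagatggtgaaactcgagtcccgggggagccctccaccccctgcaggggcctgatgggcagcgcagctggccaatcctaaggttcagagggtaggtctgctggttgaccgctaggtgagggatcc
Fetub, first start (chr16:22918132-22918381, plus strand): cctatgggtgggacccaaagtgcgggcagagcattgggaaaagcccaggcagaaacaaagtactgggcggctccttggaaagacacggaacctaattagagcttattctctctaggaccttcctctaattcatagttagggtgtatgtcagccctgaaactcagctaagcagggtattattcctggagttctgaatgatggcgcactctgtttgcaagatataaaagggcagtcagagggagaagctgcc
Fetub, second start (chr16:22919972-22920221, plus strand): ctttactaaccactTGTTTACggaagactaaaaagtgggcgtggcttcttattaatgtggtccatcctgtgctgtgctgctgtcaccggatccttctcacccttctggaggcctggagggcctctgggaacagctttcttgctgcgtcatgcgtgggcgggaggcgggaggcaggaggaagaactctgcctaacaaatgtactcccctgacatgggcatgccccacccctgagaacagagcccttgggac
The *Igfbp1* window held 1 CAAAACA, which 5.56% of 32851 promoter windows of the same length held. The *Gdf15* window at the first start held 1 AGGTCA (4607 of 32851) and that at the second start 1 CACGTG (6.02%). *Inhbe* held 1 TGATGNAA (3.45%), at a RefSeq start that lies 2563 bases inside the GENCODE gene, and the first *Fetub* window held none of the 5 motifs. The second *Fetub* window held 1 GTAAACA (3.17% of promoters), on the opposite strand. Of the windows not shown, those of *Lect2* and *Igfbp4* and the second of *Igfbp2* held none of the 5 motifs, and the first of *Igfbp2* held 1 CACGTG. Such a match describes letters in the window and not a bound site.

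The 9 genes covered a wide range of liver mRNA. Per kilobase of exon (CPM divided by exonic length, RPKM), *Igfbp2* was the highest in each group, with a mean level of 390 ± 55.1 (SD, n = 7) in Control chow, followed by *Igfbp4* at 307 ± 21.9 and *Fetub* at 251 ± 33.9. The mouse ranges of *Igfbp2* and *Igfbp4* overlapped in each group, so those neighbors were not separated. Those of *Igfbp4* and *Fetub* overlapped in Control chow, KO chow and KO HF/HS, and not in Control HF/HS. *Lect2* came next at 64.5 ± 10.7 RPKM, apart from the genes above and below it in each group. *Inhbe* (16.2 ± 3.14 RPKM) and *Enho* (12.4 ± 1.85 RPKM) followed in Control chow and changed places in the other 3 groups, with overlapping ranges. *Gdf15* (5.73 ± 1.32 RPKM) and *Igfbp1* (5.55 ± 2.12 RPKM) overlapped too, and *Fst* was last at 0.672 ± 0.224 RPKM. The counts behind a level differed widely. *Fst* rested on 37 to 292 counts per mouse and *Gdf15* on 132 to 660, against 46843 to 75716 for *Igfbp4*.

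**Figure D1:**
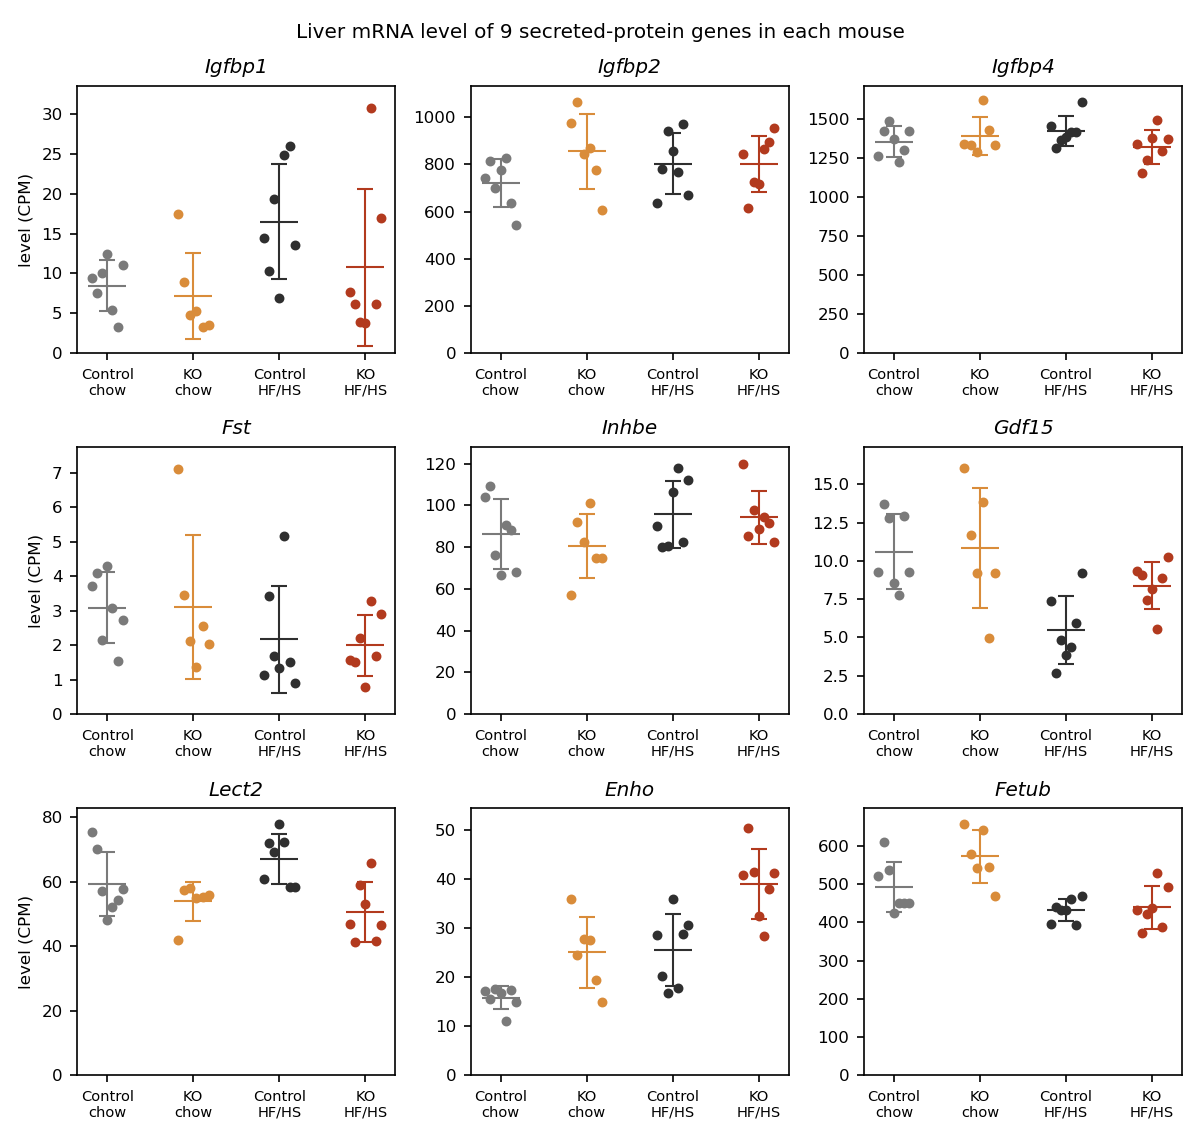
Level (CPM, linear axis from 0) of each of the 9 genes in each mouse, by group. Points are mice, and the bar and whiskers are the mean and SD of the group. The mean of *Enho* ran from 15.7 CPM in Control chow to 39.0 in KO HF/HS, and *Gdf15* was lowest in Control HF/HS at a mean of 5.48.

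Adropin mRNA was the member that moved with both the diet and the genotype. *Enho* (chromosome 4, 41638144 to 41640324, minus strand, GRCm38) ran from 10.9 to 17.6 CPM in Control chow, with a median of 16.7. In Control HF/HS it ran from 16.7 to 36.02 CPM, with a median of 28.6. The groups overlapped only narrowly, and 6 of 7 controls on HF/HS lay above each control on chow. The diet raised *Enho* in controls by 0.70 ± 0.16 on the log2 scale (fitted log2 fold change ± SE, adjusted p = 0.0140 by edgeR's quasi-likelihood test, Benjamini-Hochberg adjusted), a fold of 1.62. The exact two-sided permutation test over mice gave p = 0.00466. Here 2 of the 9 members passed in controls, against 10.5% of the 13525 genes tested. *Enho* was the 1 that rose (4.93% of genes) and *Gdf15* the 1 that fell (5.6%), and 4 members were below 0.05 unadjusted (25.4% of genes). DESeq2 called 3. The median log2 fold change of the 9 members was 0.15, beside 0.0036 over all genes tested, and in HGFAC-KO mice -0.09 beside 0.0037.

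In HGFAC-KO mice the diet difference of *Enho* was close in size. *Enho* ran from 14.8 to 35.9 CPM in KO chow (median 26.1) and from 28.3 to 50.4 CPM in KO HF/HS (median 40.8). Of the 7 KO mice on HF/HS, 5 were above each KO mouse on chow. The diet difference was 0.64 ± 0.18 on the log2 scale, just past the threshold at an adjusted p of 0.0498 (edgeR), and the exact permutation test gave p = 0.00466. This call was kept without KO chow 1 (adjusted p = 0.0175) or KO HF/HS 5 (0.0331), both by edgeR, and lost without any single one of the other 11 mice, with adjusted p from 0.0512 to 0.106. It was also lost with upper-quartile scaling (0.0661), the replicate block (0.0513), a minimum of 10 counts in each mouse (0.0511) and all genes kept whatever their counts (0.0720). Along with *Fetub*, it made 2 of 9 members past the threshold in HGFAC-KO mice, against 5.89% of 13613 genes, with 1 higher (3.17%) and 1 lower (2.73%). The same number was below 0.05 unadjusted (22.4% of genes), and DESeq2 called 2.

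The genotype difference of *Enho* was of similar size on either diet. On chow, 5 of 6 HGFAC-KO mice had more *Enho* mRNA than each control, with a log2 fold change of 0.67 ± 0.17. KO chow 1 had the highest value, 35.9 CPM, and leaving that mouse out gave 0.54 on the log2 scale. Its unadjusted p was 0.00131, rank 18 of 13571 genes, and its adjusted p was 0.801 (edgeR), while the exact permutation test of this gene alone gave p = 0.0105. On HF/HS, 5 of 7 HGFAC-KO mice lay above each control, with a log2 fold change of 0.61 ± 0.17, an unadjusted p of 0.00300, an adjusted p of 0.369 (edgeR) and an exact permutation p of 0.00583. Neither within-diet comparison passed across all genes. Averaged over both diets in the fit of all 27 mice, *Enho* was higher in HGFAC-KO mice by 0.64 ± 0.13 (adjusted p = 0.0388, edgeR, rank 11 of 13932 genes, fold 1.56). It was the 1 member of 9 past the threshold there, against 0.1% of genes called (0.0574% higher and 0.0431% lower), and DESeq2 called it too. That share rests on 14 genes, a count that ran from 1 (without KO chow 1) to 66 (without Control HF/HS 7) when single mice were left out. *Enho* and *Lect2* were below 0.05 unadjusted, against 12.7% of genes. The genotype difference did not itself differ detectably between diets, since the interaction was -0.06 on the log2 scale with a 95% interval from -0.58 to 0.46.

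The averaged genotype call on *Enho* was close to its threshold. It was kept when the mouse left out was Control chow 5 or 6, KO chow 2, 4, 5 or 6, Control HF/HS 4, 6 or 7, or KO HF/HS 4 or 5, with adjusted p down to 0.0193. It was lost without any single one of the other 16 mice, at adjusted p from 0.0535 to 0.0783 (0.0559, with a log2 fold change of 0.57, without KO chow 1), and with no filter on low counts, at 0.0571. The log2 fold change stayed between 0.57 and 0.70 without any 1 mouse. Of 8 hepatocyte markers 1 passed for the averaged genotype, against 0.1% of genes: albumin (*Alb*), by 0.30 ± 0.05 (adjusted p = 0.0304, edgeR). The list was divided, with 5 positive and 3 negative log2 fold changes and a median of 0.04. Its summed level ran from 92310 to 118400 CPM in KO HF/HS against 80180 to 100400 in Control HF/HS. Most of that sum was *Alb*, with means of 78085 CPM in KO HF/HS and 59415 in Control HF/HS. On chow the sum ran from 93410 to 103100 CPM in KO mice against 81100 to 93750. The part of this in the *Enho* result was not tested. The last bases of *Enho* overlap those of *Dnaic1* on the opposite strand, and an antisense gene, *Gm12406*, spans its start. The libraries were stranded per the labels, and whether the counting used strand is not given in the sources used here.

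*Gdf15* fell with the diet in controls. It lies on chromosome 8 (70629393 to 70632456, minus strand, GRCm38), and it ran from 7.80 to 13.7 CPM in Control chow (median 9.26) and from 2.69 to 9.20 CPM in Control HF/HS (median 4.81). Of the 7 controls on HF/HS, 6 lay below each control on chow. The log2 fold change was -0.96 ± 0.23 (adjusted p = 0.0160, edgeR), a fold of 0.516, with an exact permutation p of 0.00233. This call held without any single mouse, at adjusted p from 0.00335 to 0.0378. In HGFAC-KO mice, *Gdf15* ran from 4.96 to 16.1 CPM on chow (median 10.5) and from 5.53 to 10.3 CPM on HF/HS (median 8.90). Those groups overlapped broadly, and the difference of -0.37 ± 0.22 did not pass (adjusted p = 0.337, edgeR). The value of 16.1 CPM was that of KO chow 1. Without any 1 mouse the difference ran from -0.52 to -0.22 and did not pass.

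HGFAC-KO mice on HF/HS had a mean *Gdf15* level of 8.39 ± 1.54 CPM (SD, n = 7), against 5.48 ± 2.23 in controls (SD, n = 7). The difference of 0.62 ± 0.22 on the log2 scale did not pass across all genes (adjusted p = 0.448, edgeR), and the exact permutation test of this gene alone gave p = 0.0169. On chow the means were 10.8 CPM in HGFAC-KO mice and 10.6 in controls. Although the diet difference passed in controls and not in HGFAC-KO mice, the difference between them, 0.58 on the log2 scale with a 95% interval from -0.10 to 1.27, did not pass (adjusted p = 0.984, edgeR's interaction test). For the interaction 0 of 9 members passed, and likewise 0 were below 0.05 unadjusted (3.63% of genes) and 0 were called by DESeq2, against 0.0% of 13932 genes called by edgeR.

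Fetuin-B mRNA fell with the diet in HGFAC-KO mice. *Fetub* (chromosome 16, 22918334 to 22939778, plus strand, GRCm38) ran from 469 to 658 CPM in KO chow (median 563) and from 373 to 528 CPM in KO HF/HS (median 433). Of the 7 KO mice on HF/HS, 5 were below each KO mouse on chow. The log2 fold change was -0.38 ± 0.09 (adjusted p = 0.0252, edgeR), a fold of 0.766, with an exact permutation p of 0.00524. The edgeR call was lost without KO chow 2 (adjusted p = 0.0557), KO chow 4 (0.0575), KO HF/HS 3 (0.0502) or KO HF/HS 6 (0.0538), and kept without KO chow 1 (-0.34, 0.0408). In controls, *Fetub* ran from 426 to 611 CPM on chow (median 451) and from 393 to 469 CPM on HF/HS (median 432), and 2 of 7 mice on HF/HS lay below each chow mouse. That difference, -0.19 ± 0.08, did not pass (adjusted p = 0.125, edgeR).

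*Fetub* also varied with library composition. Over the 27 mice, after the group mean was subtracted, its level was lower where the share of counts on unnamed rows was higher, with Pearson r = -0.61 (permutation p = 0.00197, adjusted p = 0.0355 over 18 relations) and Spearman rho = -0.65 (permutation p = 0.00094, adjusted p = 0.0169). Without the 2 mice farthest from the median of *Fetub*, r was -0.51, and no mouse was left out for its share. Within groups r was -0.53 in Control chow, -0.97 in KO chow, -0.51 in Control HF/HS and -0.39 in KO HF/HS. With this share as a covariate, a setting chosen after the relation was seen, the diet difference was -0.37 in HGFAC-KO mice (adjusted p = 0.0104, edgeR) and -0.24 in controls (adjusted p = 0.0457). None of the other 17 relations of a member with this share or with library size passed. On chow, *Fetub* averaged 573 ± 70.0 CPM in HGFAC-KO mice (SD, n = 6) and 492.8 ± 66.6 in controls (SD, n = 7), and this difference did not pass (adjusted p = 0.801, edgeR).

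*Lect2*, whose product binds MET, the receptor that HGF activates, was lower in HGFAC-KO mice on HF/HS without passing across all genes. It lies on chromosome 13 (56542464 to 56548502, minus strand, GRCm38). Its level ran from 58.4 to 77.9 CPM in Control HF/HS (median 69.1) and from 41.4 to 65.8 CPM in KO HF/HS (median 46.8). Of the 7 HGFAC-KO mice, 5 were below each control. The log2 fold change was -0.40 ± 0.10, with an unadjusted p of 0.00140, rank 56 of 13544 genes, and an adjusted p of 0.331 (edgeR). The exact permutation test of this gene alone gave p = 0.00583. On chow the controls spanned 48.0 to 75.3 CPM of *Lect2* and the KO mice 42.0 to 58.1 CPM, a difference of -0.13 ± 0.10 with overlapping groups. The lowest value was that of KO chow 1, and the difference ran from -0.18 to -0.06 without any 1 mouse. Averaged over both diets it was -0.27 ± 0.08 (adjusted p = 0.136, edgeR), and DESeq2 gave an adjusted p of 0.0582. Without any 1 mouse the edgeR value ran from 0.0597 to 0.210.

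**Figure D2:**
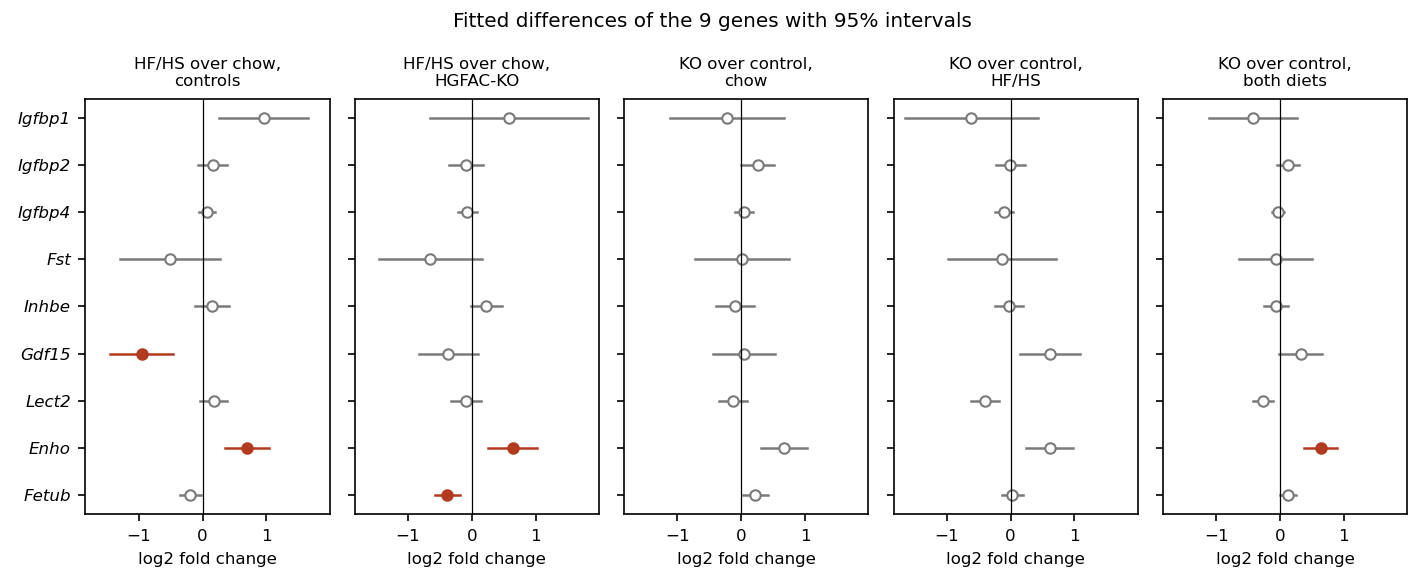
Fitted log2 fold change of each gene (horizontal axis) with its 95% interval in 5 comparisons. Filled points passed an adjusted p of 0.05 across all genes, open points did not. *Enho* is right of 0 in all 5 panels, and *Gdf15* and *Lect2* lie on opposite sides of 0 for genotype on HF/HS, at 0.62 and -0.40.

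Within each diet, 0 of 9 members passed between genotypes. On chow, *Enho* and *Fetub* (2 members) were below 0.05 unadjusted (5.98% of genes), and DESeq2 called 0 of the 4 members that its filtering left with an adjusted p, against 0.00737% of 13571 genes called by edgeR. On HF/HS, *Gdf15*, *Lect2* and *Enho* (3 members) were below 0.05 unadjusted (9.64% of genes) and DESeq2 called 0, against 0.0148% of 13544 genes called by edgeR (0.00738% higher and 0.00738% lower). The gene called on both diets was *Hgfac* itself. The exact permutation tests were made for 10 genes (the members and *Hgfac*) in 4 comparisons and are not adjusted for their number, and the smallest p they can give is 0.000583.

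*Igfbp1* (chromosome 11, 7197782 to 7202546, plus strand, GRCm38) was the most variable member beside *Fst*. It ran from 3.31 to 12.5 CPM in Control chow (median 9.42) and from 6.94 to 26.1 CPM in Control HF/HS (median 14.5), and 5 of 7 controls on HF/HS lay above each control on chow. The log2 fold change was 0.96 ± 0.32, which missed the threshold with edgeR (adjusted p = 0.0768) and passed with DESeq2 (adjusted p = 0.0355). It passed without Control HF/HS 4 too (adjusted p = 0.0290, edgeR), but without none of the other 13 mice (0.0656 to 0.147). DESeq2 was the 1 of 7 alternative fits that passed, with adjusted p up to 0.252 (edgeR) in the others. In KO HF/HS, *Igfbp1* spanned 3.75 to 30.8 CPM, a ratio of 8.22 between the highest and the lowest mouse, with a median of 6.19. In KO chow it spanned 3.32 to 17.5 CPM with a median of 5.02, and the single mice farthest above the rest were KO chow 1 at 17.5 CPM, KO HF/HS 5 at 30.8 and KO HF/HS 7 at 17.0. Genotype differences of -0.23 ± 0.41 on chow (-0.72 without KO chow 1) and -0.62 ± 0.48 on HF/HS did not pass (adjusted p = 0.920 and 0.715, edgeR). The HF/HS difference ran from -1.15 to -0.46 without any 1 mouse and did not pass.

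The more abundant IGF carriers passed in no comparison. *Igfbp2* (chromosome 1, 72824503 to 72852474, plus strand, GRCm38) had mean levels between 720 and 855 CPM over the groups, and 4 of 6 HGFAC-KO mice on chow were above each chow control. That difference, 0.25 ± 0.12 on the log2 scale, did not pass (adjusted p = 0.801, edgeR), and its 95% interval ran from -0.0040 to 0.51. *Igfbp4* (chromosome 11, 99041244 to 99054392, plus strand, GRCm38), which PAPPA cleaves to free its IGF, stayed between 1154 and 1624 CPM in all 27 mice. Its SD was 6.64% to 8.77% of the mean within groups, the narrowest relative spread of the 9 genes in each of the 4 groups. The largest of its 4 within-stratum differences was -0.11 ± 0.06 on the log2 scale, for genotype on HF/HS (95% interval -0.24 to 0.03).

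Among the activin genes, neither *Inhbe* nor *Fst* passed in any comparison. *Inhbe* (chromosome 10, 127348857 to 127354411, minus strand, GRCm38) ran from 57.1 to 101 CPM in KO chow and from 82.3 to 120 CPM in KO HF/HS, a diet difference of 0.23 ± 0.12 (95% interval -0.02 to 0.47). The lowest value was that of KO chow 1, and the difference ran from 0.14 to 0.30 without any 1 mouse. In controls the diet difference was 0.15 ± 0.13, with ranges of 66.8 to 109 CPM on chow and 80.1 to 118 on HF/HS. *Fst* (chromosome 13, 114452290 to 114458951, minus strand, GRCm38) averaged 3.09 CPM in Control chow, 3.11 in KO chow, 2.17 in Control HF/HS and 1.99 in KO HF/HS. Its diet differences were -0.51 ± 0.37 in controls and -0.65 ± 0.38 in HGFAC-KO mice, with 95% intervals from -1.29 to 0.28 and from -1.46 to 0.16. Without any 1 mouse they ran from -0.88 to -0.37 and from -0.83 to -0.22. KO chow 1 had the highest *Fst* value of its group, 7.13 CPM. Antisense genes overlap *Inhbe* (*Gm47200*) and *Fst* (*Gm47040*). For none of the 9 members were the groups free of overlap in any of these 4 comparisons. Over the 13932 genes of the fit of all mice, groups without overlap made up 1.53% (higher) and 1.91% (lower) for the diet in controls and 1.67% and 1.29% in HGFAC-KO mice. For genotype they made up 0.079% and 0.0574% on chow and 0.0144% and 0.0718% on HF/HS.

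Of the other activin genes, the subunits *Inhba* and *Inhbc* passed for the diet. *Inhba*, the activin A subunit, ran from 6.06 to 16.2 CPM in Control chow and from 12.3 to 23.1 CPM in Control HF/HS. It rose by 0.82 ± 0.21 in controls (adjusted p = 0.0251, edgeR) and by 0.79 ± 0.17 in HGFAC-KO mice (adjusted p = 0.0153). *Inhbc*, the activin C subunit, lies beside *Inhbe* on chromosome 10 (127356322 to 127370431) and ran from 92.1 to 138 CPM in Control chow and from 127 to 201 in Control HF/HS. It rose by 0.57 ± 0.11 in controls (adjusted p = 0.00389) and did not pass in HGFAC-KO mice, where the difference was 0.30 ± 0.15. Of 16 tested genes of this pathway, 2 rose and 0 fell in controls and 1 rose and 0 fell in HGFAC-KO mice, which is near the 10.5% and 5.89% of all genes called. The median log2 fold change was 0.12 in controls and 0.19 in HGFAC-KO mice, beside 0.0036 and 0.0037 over all genes tested.

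Around the IGF carriers, 2 of 14 tested IGF axis genes rose with the diet in controls and 0 fell, near the 10.5% of all genes called. These were the growth hormone receptor *Ghr*, by 0.17 ± 0.05 (adjusted p = 0.0299, edgeR), and *Igfbp7*, by 0.25 ± 0.08 (adjusted p = 0.0457). In HGFAC-KO mice 0 passed by edgeR and 0 by DESeq2, and the 2 below 0.05 unadjusted were again *Ghr* (0.20 ± 0.08) and *Igfbp7* (0.27 ± 0.12). Medians were 0.03 and 0.06. Between genotypes 0 of 14 passed within either diet or averaged by edgeR, and DESeq2 called 0 as well, with an adjusted p for 4 of them on chow. Below 0.05 unadjusted were 0 genes on chow and 1, *Igf2r*, on HF/HS.

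Among 21 tested other hepatokines, 3 rose and 1 fell with the diet in controls, not counting members but counting *Hgfac*, where 4.93% of all genes rose and 5.6% fell. *Hgf* rose by 0.53 ± 0.16 (adjusted p = 0.0479, edgeR) and *Angptl4*, an inhibitor of lipoprotein lipase, by 0.85 ± 0.26 (adjusted p = 0.0495). *Tsku*, which encodes the secreted protein tsukushi, fell from a mean of 247 to 150 CPM, a log2 fold change of -0.72 ± 0.19 (adjusted p = 0.0251). In HGFAC-KO mice *Hgf* rose by 0.91 ± 0.24 (adjusted p = 0.0411), *Tsku* fell with a log2 fold change of -0.96 ± 0.21 (adjusted p = 0.0182) and *Hgfac* counts rose by 0.29 ± 0.08 (adjusted p = 0.0382). *Hgfac* itself rose by 0.43 ± 0.05 in controls (adjusted p = 5.47e-05). DESeq2 called 4 genes of the list higher and 3 lower in controls, and 3 higher and 1 lower in HGFAC-KO mice, where edgeR called 3.17% of all genes higher and 2.73% lower. The list's medians were 0.08 and 0.02. Between genotypes *Hgfac* was the 1 gene of the list past the threshold with edgeR, and DESeq2 added *Angptl8*, an inhibitor of lipoprotein lipase, on HF/HS (1.00 ± 0.23, edgeR adjusted p = 0.331) and averaged over diets.

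Of 8 tested receptors and binding partners of the members, *Met* rose in controls by 0.31 ± 0.10 (adjusted p = 0.0473, edgeR), from a mean of 70.5 to 87.8 CPM, and the integrin subunit *Itga5* fell, with a log2 fold change of -0.33 ± 0.07 (adjusted p = 0.00490). *Itga5* fell in HGFAC-KO mice as well, with a log2 fold change of -0.34 ± 0.06 (adjusted p = 0.00335), while *Met* did not pass there (0.29 ± 0.11, adjusted p = 0.123). Over all genes 10.5% were called in controls and 5.89% in HGFAC-KO mice. Medians were -0.08 and 0.08. *Gfral*, the receptor of GDF15, was not among the genes tested, as its counts did not pass the filter. Between genotypes 0 of 7 tested genes passed on either diet by edgeR, and DESeq2 called 0, with an adjusted p for 1 of them on chow. *Itga5* on chow (1 gene) and *Cd209a* and *Notch1* on HF/HS (2 genes) were below 0.05 unadjusted.

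**Figure D3:**
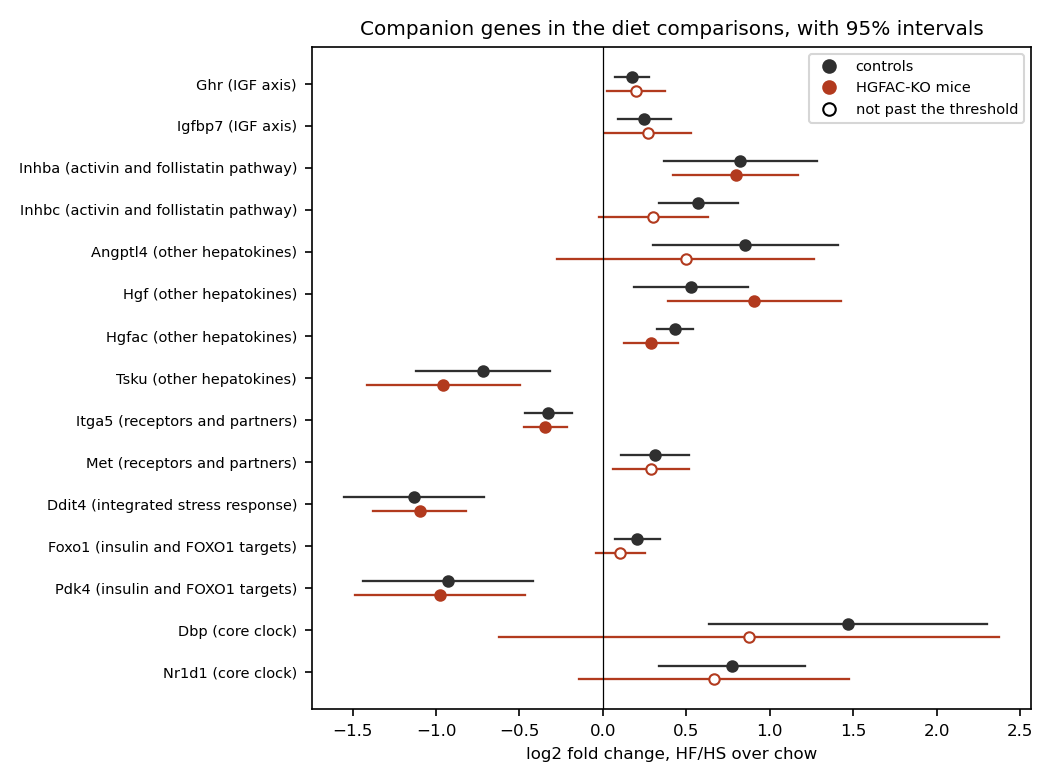
Log2 fold change of HF/HS over chow (horizontal axis) with its 95% interval for the companion genes that passed in either genotype, in controls and in HGFAC-KO mice. Filled points passed an adjusted p of 0.05. *Inhba*, *Hgf*, *Hgfac*, *Tsku*, *Itga5*, *Ddit4* and *Pdk4* passed in both genotypes and the others in controls alone, and the interaction passed for 0 of them.

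*Gdf15* and *Inhbe* are known targets of the integrated stress response, in which ATF4 and CHOP raise genes of amino acid supply. Of 18 tested genes of that response, 15 had a negative and 3 a positive log2 fold change with the diet in controls, with a median of -0.26, and 1 passed, where 10.5% of all genes were called. This was *Ddit4*, an inhibitor of mTORC1, whose mean fell from 15.2 to 6.98 CPM, a log2 fold change of -1.13 ± 0.20 (adjusted p = 0.00191, edgeR). DESeq2 also called *Asns* and *Eif4ebp1* lower. In HGFAC-KO mice the list was divided, with 8 positive and 10 negative values and a median of -0.03, and *Ddit4* alone passed (-1.10 ± 0.13, adjusted p = 0.000194), where 5.89% of all genes were called. DESeq2 called 4 there, all lower. Between genotypes 0 of 18 passed within either diet by edgeR, and DESeq2 called 0, with an adjusted p for 3 of them on chow. *Ddit4* on chow (1 gene) and *Aldh1l2* and *Asns* on HF/HS (2 genes) were below 0.05 unadjusted.

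*Igfbp1* was read beside 15 genes that insulin lowers through FOXO1 or raises through SREBP1c, with the FOXO genes. In controls *Foxo1* rose by 0.21 ± 0.06 (adjusted p = 0.0464, edgeR) and *Pdk4*, a kinase that restrains pyruvate dehydrogenase, fell from a mean of 11.5 to 6.07 CPM, with a log2 fold change of -0.93 ± 0.24 (adjusted p = 0.0227). *Pdk4* fell in HGFAC-KO mice too, with a log2 fold change of -0.98 ± 0.24 (adjusted p = 0.0272), where 0 genes of the list rose. These counts, 2 and 1 of 15, stand beside 10.5% and 5.89% of all genes called. Medians were 0.14 and 0.06. Between genotypes 0 of 15 passed within either diet by edgeR, and DESeq2 called 0, with an adjusted p for 6 of them on chow. Below 0.05 unadjusted were 0 genes on chow and 3 on HF/HS (9.64% of all genes), among them *Foxo3* and *Pck1*, a gluconeogenic enzyme named here after its values were seen, with means of 1612 CPM in controls and 820.3 in HGFAC-KO mice (-0.97 ± 0.38, adjusted p = 0.454, edgeR).

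Clock genes follow time of day and feeding, and the hour of sampling was not given in the sources used here. The paper gives an overnight fast and a refeeding for its liver triglyceride values on both diets. It does not say whether the sequenced livers came from those mice. In controls 2 of 16 rose with the diet and 0 fell: *Dbp* by 1.47 ± 0.39 (adjusted p = 0.0284, edgeR) and *Nr1d1* by 0.77 ± 0.20 (adjusted p = 0.0272), with a list median of 0.12, where 10.5% of all genes were called. DESeq2 called 5 there, 4 higher and 1 (*Arntl*) lower. In HGFAC-KO mice 0 passed by edgeR or DESeq2, 1 (*Ciart*) was below 0.05 unadjusted, and the median was 0.03. Between genotypes on HF/HS, 12 of 16 had a negative log2 fold change (median -0.16). Of these 16 genes 7 were below 0.05 unadjusted (9.64% of all genes) and 0 passed with edgeR, while DESeq2 called *Arntl* higher (0.53 ± 0.13, edgeR adjusted p = 0.331). The part of the clock in the member differences was not tested.

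Markers of other liver cells moved in the diet comparison of HGFAC-KO mice. Of 8 Kupffer cell markers 4 rose there, against 3.17% of all genes, among them *Clec4f* by 0.65 ± 0.11 (adjusted p = 0.00372, edgeR) and *Cd68* by 0.51 ± 0.09 (adjusted p = 0.00290), and the summed level ran from 127 to 194 CPM in KO chow and from 166 to 292 CPM in KO HF/HS. Of 8 endothelial markers 1 (*Stab2*, 0.42 ± 0.09) and of 7 leukocyte markers 1 (*Ptprc*, 0.63 ± 0.14) rose as well, against the same 3.17%. Between genotypes, 8 of 8 Kupffer cell markers were lower in KO mice on chow (median -0.27) and 5 of 8 higher on HF/HS (median 0.06). All 8 interaction values were positive (median 0.33), and 0 passed in any of these 3 by edgeR. For the diet in controls, 0 Kupffer cell markers passed by edgeR, 3 were below 0.05 unadjusted (25.4% of all genes) and DESeq2 called 1. There the leukocyte gene *S100a8* rose by 1.62 ± 0.36 (adjusted p = 0.00820), and the stellate cell marker *Lrat* fell, with a log2 fold change of -0.60 ± 0.16 (adjusted p = 0.0273). Hepatocyte markers gave *Tat* lower on HF/HS in both genotypes and *Apoa1* higher in controls (0.39 ± 0.05, adjusted p = 0.000292). For the diet, 0 of 5 cholangiocyte and 0 of 1 adipocyte markers tested were called by edgeR or DESeq2 or lay below 0.05 unadjusted. For genotype, the cholangiocyte marker *Sox9* was below 0.05 unadjusted on both diets and DESeq2 called it higher on HF/HS and averaged, while edgeR called 0 (averaged 0.66 ± 0.14, adjusted p = 0.0532). The part of these shifts in the diet differences of *Enho* and *Fetub* was not tested.

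Between mice of the same group the members did not move as 1 set. Over 36 pairs the largest Pearson correlation of deviations from group means was that of *Igfbp1* with *Fst*, r = 0.60 (permutation p = 0.00142, adjusted p = 0.0511 over 36 pairs) and Spearman rho = 0.53 (permutation p = 0.00704, adjusted p = 0.127), and r was 0.47 without the 2 mice farthest from the median of *Igfbp1*. Within groups this r was 0.61, 0.82, 0.27 and 0.77 in Control chow, KO chow, Control HF/HS and KO HF/HS. The most negative pair was *Gdf15* with *Lect2*, at r = -0.44 (permutation p = 0.0171, adjusted p = 0.132) and rho = -0.43 (permutation p = 0.0291, adjusted p = 0.150). Within groups this r was 0.33 in Control chow, -0.51 in KO chow, -0.83 in Control HF/HS and -0.85 in KO HF/HS. No pair passed after adjustment.

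**Figure D4:**
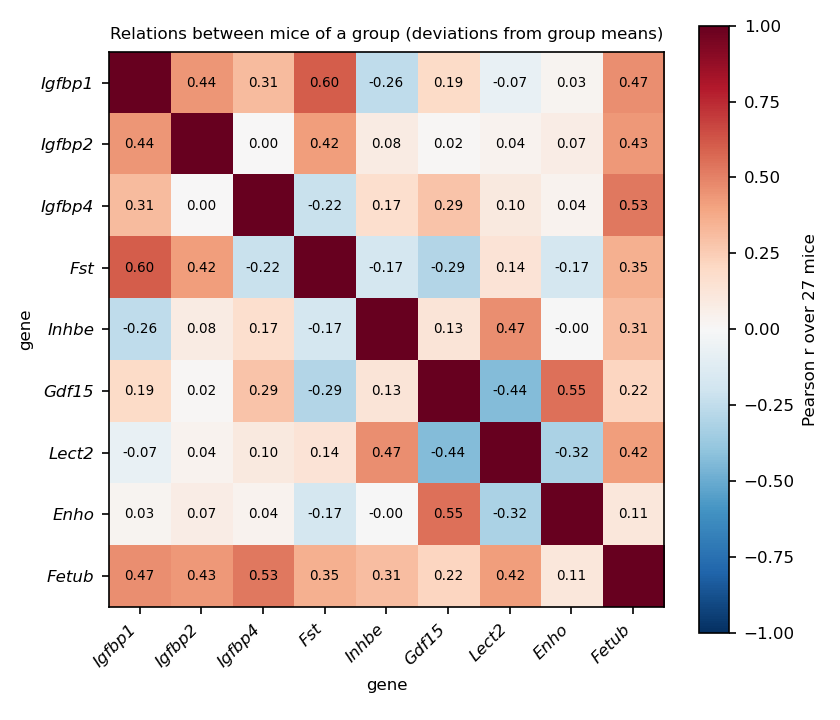
Pearson r between members over 27 mice, after the mean of each group was subtracted from the log2 level. Color and number give r, from -1 in blue to 1 in red. *Igfbp1* with *Fst* is the highest pair at 0.60 and *Gdf15* with *Lect2* the lowest at -0.44.

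For each member the genes most like it were taken as those with the largest Pearson r of such deviations over 27 mice, among 13931 other genes. These values are descriptions, as the genes were picked for them and share library and depth. *Lect2* had the closest, *Slc16a11* (a monocarboxylate transporter family gene, r = 0.89), *Ppp1ca* (0.85) and *Fitm1* (0.82). *Fetub* followed with *Rae1* (0.86), *Pcna* (0.82) and *Rnf126* (0.82), *Igfbp4* with *1810055G02Rik* (0.83), *Ptbp1* (0.82) and *Plppr3* (0.82), *Gdf15* with *Tjap1* (0.83), *Tfe3* (0.80) and *Kdm6b* (0.78), and *Enho* with *A1bg* (0.83), *Psmb10* (0.75) and *Dnaic1* (0.75). *Dnaic1*, whose end overlaps that of *Enho*, had a mean of 0.689 CPM. *Fst* went with *Pde4b* (0.80), *Rai2* (0.75) and *Klk1b4* (0.74), *Igfbp2* with *Amer2* (0.79), *Bag1* (0.78) and *Mpc2* (0.74), *Igfbp1* with *Zfyve27* (0.76), *Prr14* (0.75) and *Vrk3* (0.74), and *Inhbe* with *Gdpgp1* (0.74), *Glul* (0.72) and *Alox15* (0.72).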

How the data were processed

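Liver mRNA of 27 mice was sequenced from stranded libraries. Before deposit the authors aligned the reads to mouse GRCm38 (mm10) with HISAT2 and counted them per gene with featureCounts 1.6.3, per the paper's methods and the submitters' processing notes, and the deposited values are raw gene counts in 1 table of 27179 rows. The 3886 rows that name no gene (4.13% to 12.1% of counts per mouse) entered neither the library sizes nor the tests, and 89 symbols on more than 1 row were summed. Total counts per mouse ran from 36056177 to 57298657.

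Here, genes were kept by filterByExpr (minimum count 10, minimum total 15), scaled by TMM and tested with edgeR 4.0.16 (quasi-likelihood F test, robust) in R 4.3.3, with limma 3.58.1, Benjamini-Hochberg adjustment over all genes tested and a threshold of 0.05. Within-diet and within-genotype comparisons used the groups compared, and the averaged genotype effect and the interaction used all 27 mice. Fold changes are HF/HS over chow and KO over control, and intervals are 95%. Levels are CPM with the TMM factors of all mice. Two-sided exact permutation tests over mice and correlations (100000 draws within groups, scipy 1.17.1) used log2 CPM with a prior count of 2. The scripts were tested on simulated counts. Libraries of a group differed by more than sampling noise (chi-square per gene at least 17.7).

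Alternatives were DESeq2 1.42.0, other scalings and filters, a fit of all mice, a replicate block, a prior count of 0.5, each mouse left out and, added after seeing the data, the share of unnamed counts as a covariate. All 9 members were named, with the companion genes past the threshold, at most 6 per list and comparison, or the 2 of smallest p. Of cell type markers at most 3 that passed were named, and of genes most like a member 3. Genes called by DESeq2 alone, *Gfral*, *Sox9*, *Pck1*, *Fgf21* and *Igf1* were named after their values were seen. *Igf1* and *Irs2* stand in 2 lists each. The members and lists were chosen with earlier results of these data known. Gene positions are from GENCODE M21.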

Additional observations from a re-analysis of the deposited data

Results flagged for a closer look

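Of 36 sets of values (9 genes in 4 groups), 4 held a mouse that stood apart from the rest of its group by Dixon's criterion, which chance meets in about 1 in 20 sets. *Fst* was 7.126 CPM in KO chow 1, against 1.37 to 3.46 in the other 5 mice of the group. *Lect2* was 41.97 CPM in the same mouse, against 55.0 to 58.1 in the others. *Inhbe* was 119.9 CPM in KO HF/HS 1, against 82.3 to 97.6 in the other 6 mice. *Enho* was 10.93 CPM in Control chow 5, against 14.9 to 17.6 in the other 6 mice.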

How the results depend on the processing

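The calls of *Enho* and *Gdf15* for the diet in controls held in each alternative fit and without any 1 mouse. The replicate block lowered the genes called for the diet in controls from 1424 to 774, and the numbers did not pair the mice (correlations of same-numbered mice from -0.252 to 0.368). DESeq2 called 1401 genes for the diet in HGFAC-KO mice (802 by edgeR), 13 for genotype on chow (1), 55 on HF/HS (2) and 161 averaged (14), and the fit of all 27 mice called 1 on HF/HS. Members called for the diet in HGFAC-KO mice fell from 2 to 1 with upper-quartile scaling, no filter, at least 10 counts in every library or the replicate block, where *Enho* was at an adjusted p (edgeR) of 0.0661, 0.0720, 0.0511 and 0.0513, and for the averaged genotype from 1 to 0 with no filter. The cause was not tested.

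Differences near 0 changed sign: on chow *Fst* to -0.11 and *Gdf15* to -0.047 with the replicate block and to -0.095 and -0.032 with the share of unnamed counts as a covariate. On HF/HS *Igfbp2* went to 0.0093 with upper-quartile scaling and to 0.035 with the covariate, and *Fst* to 0.17 with the covariate. The interaction of *Fst* went to 0.039 with the replicate block and 0.22 with the covariate.

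Without 1 mouse each, members called ranged from 0 to 2 (diet in HGFAC-KO mice) and from 0 to 1 (averaged). Genes called ranged from 467 (without KO chow 2) to 950 for the diet in HGFAC-KO mice, from 2 to 11 for genotype on HF/HS (5 without Control HF/HS 7, 11 without KO HF/HS 5), and from 1 (without KO chow 1) to 66 (without Control HF/HS 7) averaged, where 17 of 27 mice moved the count by over 1.5 times. Log2 fold changes on chow ranged from -0.42 to 0.17 for *Fst*, -0.11 to 0.19 for *Gdf15* and -0.0026 to 0.068 for *Igfbp4*. On HF/HS they ranged from -0.30 to 0.24 for *Fst*, -0.051 to 0.053 for *Igfbp2*, -0.092 to 0.037 for *Inhbe* and -0.024 to 0.061 for *Fetub*. Averaged, *Fst* ranged from -0.28 to 0.12. The interaction ranged from -0.17 to 0.072 for *Enho*, -0.91 to 0.11 for *Igfbp1*, -0.31 to 0.28 for *Fst* and -0.0039 to 0.15 for *Inhbe*.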

Other observations

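*Fgf21*, a hepatokine that acts on fat tissue and brain, had mean levels of 1.01 CPM in Control chow, 0.818 in KO chow, 3.06 in Control HF/HS and 3.97 in KO HF/HS. Its diet differences were 1.59 ± 0.49 on the log2 scale in controls (adjusted p = 0.0521, edgeR) and 2.28 ± 0.66 in HGFAC-KO mice (adjusted p = 0.0595, edgeR), and DESeq2 called both. *Igf1*, the ligand that the binding proteins carry, stayed between 383 and 539 CPM in all 27 mice and passed in 0 comparisons with either tool, with 0 below 0.05 unadjusted.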
